A study of Mus musculus with 2 samples.

Results

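Tissue-resident memory-like T (Trm-like) cells were taken from transplanted mouse hearts as the cells that the deposited annotation classifies as Trm-like, which were 362 of 4441 cells. The hearts were Bm12 allografts in C57BL/6 (B6) wild-type recipients, harvested at postoperative day (POD) 14. Bm12 mice carry a mutated I-A class II molecule, and this single mismatch is shared by both groups. Donor hearts were either Il33+/+ (IL-33+ grafts, hearts 1, 2 and 3) or Il33-/- (IL-33- grafts, hearts 4, 5 and 6), with 3 hearts per group. The deletion was germline and lay in the donor only, so recipient cells that entered an IL-33- graft still carried Il33. The animals' age is not given in the sources used here. Each heart was labelled with its own hashtag antibody and all 6 were pooled in 1 library, so a cell's heart and group rest on its hashtag.

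Resident memory T cells are T cells that stay in a peripheral tissue after an immune response instead of returning to blood and lymph. They are known for surface molecules that hold them in tissue, such as CD69, CD103 (Itgae) and CD49a (Itga1), and for low levels of the genes of tissue exit, such as the sphingosine phosphate receptor S1pr1 and its inducer Klf2. CD8 T cells of this kind hold granzymes, proteases stored in granules and released on contact with a target cell. IL-33 is an alarmin released by stromal cells, and its receptor is ST2 (Il1rl1).

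Hearts 1 to 6 gave 81, 20, 106, 59, 33 and 63 Trm-like cells. Heart 2 contributed the fewest. A unique molecular identifier (UMI) marks 1 captured RNA molecule, and the median UMIs per Trm-like cell lay between 2421 and 3219 in the 6 hearts. No cell barcode occurred more than once. Levels are given in CPM (UMIs of a gene scaled to a common total per cell), the mean over the Trm-like cells of a heart unless stated otherwise.

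The Trm-like cells had the highest Cd8a and Cd8b1 levels of the 14 annotated types. Over all its cells the Cd8a level was 289.5 CPM, against 109 CPM in effector/effector memory T (Tem/eff) cells, the next type. The Cd8b1 level was 219 CPM, against 108 CPM in Tem/eff cells. Cd3e, a chain of the T cell receptor complex, had a UMI in 66.9% of Trm-like cells. Its level of 463 CPM was below those of Tem/eff cells (573 CPM) and Tregs (501 CPM). Cd3d, Cd3g and Trac were also higher in both of those types. Thy1, Trbc1, Lck and Lat were at their highest in Trm-like cells. For Trbc1 (536 against 528 CPM) and Lck (316 against 314 CPM) Tem/eff cells were close. Cd4 had a UMI in 13.3% of Trm-like cells, 66.7% of Tem/eff cells and 58.9% of Tregs, at median depths of 2706, 5693 and 2860 UMIs. With each cell thinned (reduced at random) to 1500 UMIs, the shares were 8.3%, 33.9% and 39.2%. Because these genes are among those by which cells were grouped, the levels describe the type and were not tested.

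The granzyme genes separated Trm-like cells from their neighbours in different ways. Gzmk, encoding granzyme K, stood at 173 CPM and at 35.4 CPM in Tem/eff cells, the next type. That was a ratio of 4.90, the highest among genes at 50 CPM or more in Trm-like cells. Gzma, encoding granzyme A, stood at 1377 CPM in Trm-like cells, where NK cells had 6861 CPM and NKT cells 4518 CPM, and above the 557 CPM of unconventional T cells. Gzmb took the same place, at 323 CPM in Trm-like cells. NK cells had 1048 CPM of it and NKT cells 714 CPM. Ccl5, a chemokine that draws T cells and monocytes, was at 3149 CPM in Trm-like cells and 3921 CPM in NK cells. After Gzmk, Cd8a and Cd8b1, the genes with the highest ratios to the next type were Tshz1 (1.97), Rpa2 (1.88) and Dtx4 (1.61).

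**Figure D1:**
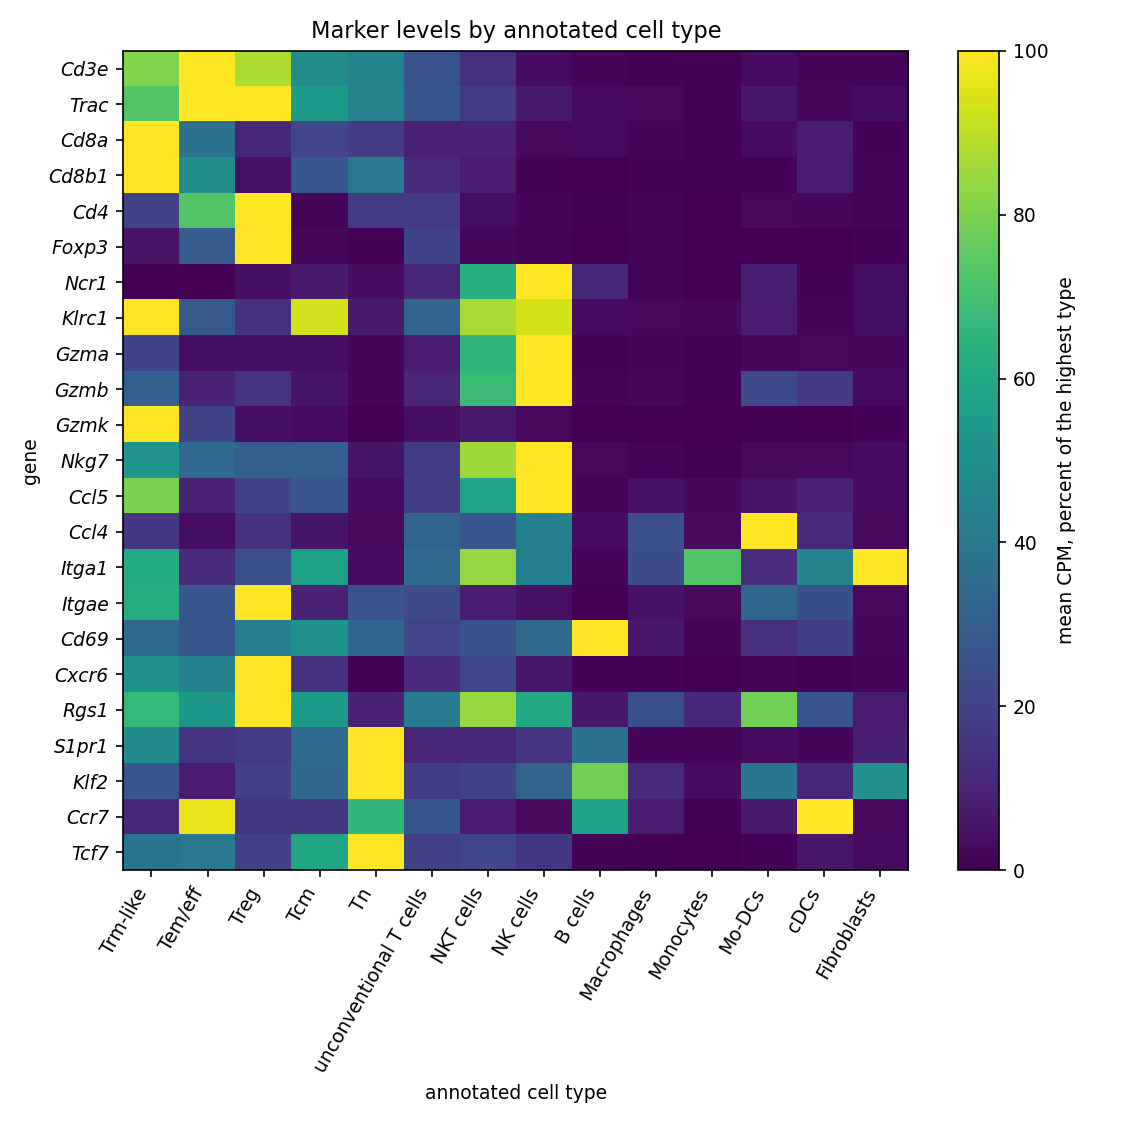
Mean level of 23 genes (rows) in the 14 annotated cell types (columns), each gene as a percent of its highest type (colour, 0 to 100). Cd8a, Cd8b1, Gzmk and Klrc1 are at 100 in Trm-like cells, and Zfp683, at 0 UMIs in these cells, is not drawn.

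Of 20 tissue residency genes, 0 were at their highest in Trm-like cells. Zfp683, which encodes the residency factor Hobit, had 0 UMIs in 362 cells, which allows a UMI in up to 0.829% of cells. It was hardly captured in other types either, with a UMI in 1.15% of NKT cells and 0.215% of NK cells, so that the 0 says little about its expression. Itgae had a UMI in 3.6% of Trm-like cells (95% exact Clopper-Pearson interval of counting error 1.93% to 6.06%) and 7.2% of Tregs. Its level of 25.0 CPM was exceeded only by Tregs at 40.2 CPM. Itga1 was at 76.5 CPM, below fibroblasts, NKT cells and monocytes. It was above central memory T (Tcm) cells at 70.6 CPM, Tregs at 30.9 CPM and Tem/eff cells at 15.5 CPM. Cd69 was at 199 CPM, below B cells, Tcm cells, Tregs and NK cells. Cxcr6, a chemokine receptor of tissue T cells, was at 300.7 CPM and was exceeded by Tregs at 586 CPM. The genes of tissue exit were also present. S1pr1 had a UMI in 48.6% of Trm-like cells, and its level of 463 CPM was exceeded only by naive T (Tn) cells at 976 CPM. Klf2 was at 422 CPM against 1583 CPM in Tn cells. Cxcr6 had a UMI in 37.8% of Trm-like cells, Gzma in 39.2% and Gzmk in 25.1%, and 145 of 362 cells had no UMI of Gzma, Gzmb or Gzmk. The name Trm-like is used below as the annotation gives it.

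Markers of other cell types were counted within the annotation. The NK receptor gene Ncr1 had 0 UMIs, but only 11.1% of NK cells had one. UMIs of 2 or more of 8 NK markers occurred in 37 cells (10.2%), against 4.12% of Tn cells and 4.56% of Tregs, at median depths of 2706, 2764 and 2860.0 UMIs. In types with more UMIs per cell they occurred in 7.95% of Tem/eff cells (5693 UMIs) and 45.9% of Tcm cells (4039 UMIs). Of those markers Tyrobp and Fcer1g are also macrophage genes. Macrophage markers, 2 or more of 9, occurred in 37 cells (10.2%), against 10.3% of Tn cells and 12.5% of Tregs. B cell markers, 2 or more of 5, occurred in 3 cells (0.829%), against 0.412% of Tn cells and 2.28% of Tregs. Genes of gamma delta T cells, 2 or more of 9, occurred in 15 cells, of which 6 came from heart 3 and 4 from heart 4. That was 4.14% of Trm-like cells, against 10.5% of Tcm cells (median depth 4039 UMIs) and 2.28% of Tregs. Foxp3 had a UMI in 1.7% of cells, against 0.54% of NK cells, 2.0% of NKT cells (5741 UMIs) and 19.4% of Tregs.

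To ask whether graft IL-33 went with the number of these cells, their share was compared between groups. Trm-like cells were 9.35%, 8.70% and 6.36% of the cells of the IL-33+ hearts 1, 2 and 3, and 7.06%, 11.6% and 11.3% of those of the IL-33- hearts 4, 5 and 6. The groups overlapped, with means of 8.14% ± 1.57 (SD, n = 3) and 9.98% ± 2.54 (SD, n = 3), and a two-sided exact permutation p of 0.3. Among annotated T cells (Tn, Tcm, Tem/eff, Trm-like and Treg) the shares were 36.3%, 19.8% and 25.2% in IL-33+ hearts. They were 17.3%, 20.1% and 30% in IL-33- hearts, and the exact permutation p was 0.6. With 3 hearts per group the smallest p this test can give is 0.1.

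The content of CD8-bearing cells did not separate the groups either. After each cell was thinned to 1500 UMIs, a Cd8a or Cd8b1 UMI was found in 54.3%, 30% and 41.5% of Trm-like cells in the IL-33+ hearts. In the IL-33- hearts the shares were 37.3%, 24.2% and 46.0%, and the exact permutation p was 0.5. With all UMIs the sign of the difference in means turned, from 6.09 to -0.946 percentage points. The same genes gave UMIs in few cells of types that should lack them, for Cd8a in 0.7% of thinned macrophages (median depth 6606 UMIs before thinning) against 29.0% of thinned Trm-like cells (2706 UMIs).

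**Figure D2:**
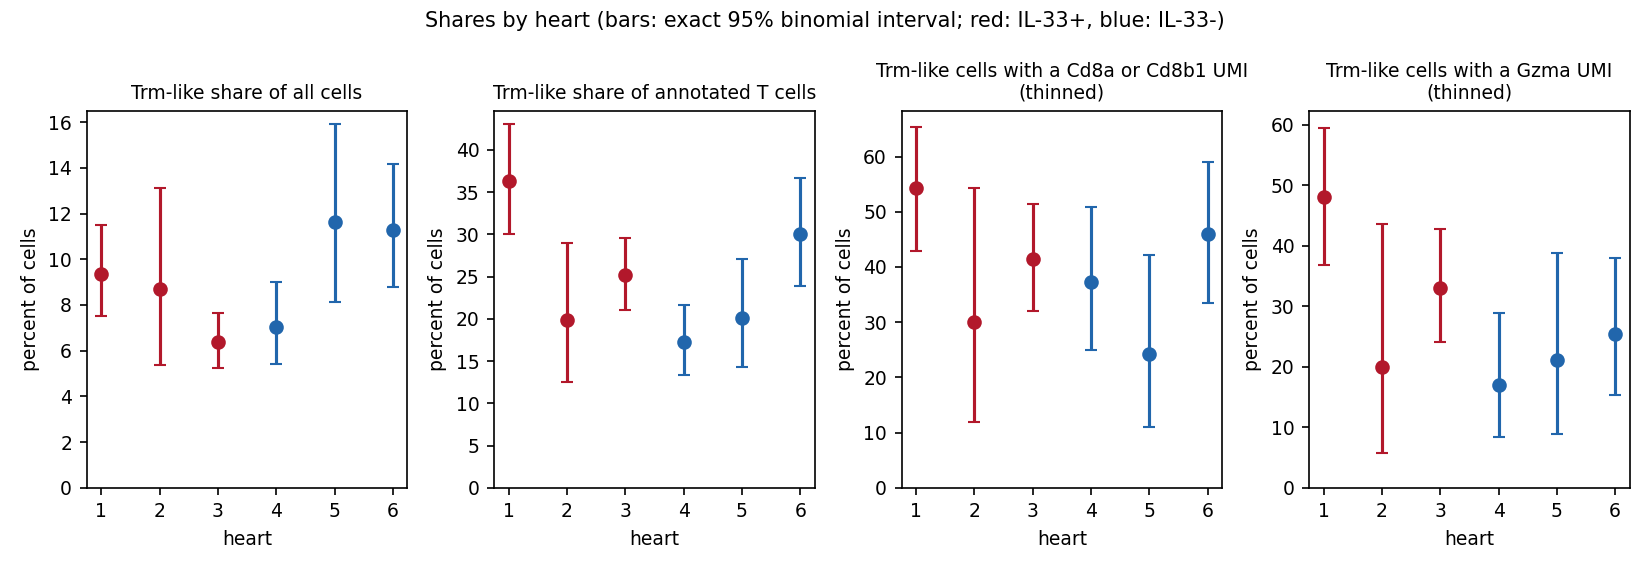
Trm-like share of all cells and of annotated T cells, and share of Trm-like cells with a Cd8a or Cd8b1 UMI or a Gzma UMI after thinning (y axes, percent), by heart (x axis). Points are hearts and bars exact 95% binomial intervals of counting error, and the IL-33+ hearts 1 to 3 overlap the IL-33- hearts 4 to 6 in every panel.

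Gene levels in Trm-like cells were then compared between IL-33+ and IL-33- grafts. Gzma was the single gene of 7819 tested (0.0128%) that was called, meaning that its limma p, adjusted by Benjamini and Hochberg over all of them, was at most 0.05. Its level was 2356, 1142 and 2016 CPM in IL-33+ hearts 1, 2 and 3, and 204, 524 and 665 CPM in IL-33- hearts 4, 5 and 6. Every IL-33+ heart lay above every IL-33- heart. The group means were 1838 ± 626 (SD, n = 3) and 464 ± 236 CPM (SD, n = 3), a fold of 4.15 with 10 CPM added (log2 fold change 2.05, SE 0.27, limma adjusted p = 0.00036). The two-sided exact permutation p was 0.1, the smallest that 3 against 3 hearts allow. Gzma lies on mouse chromosome 13 (GRCm38, 113093825 to 113100981, minus strand), beside Gzmk (113171608 to 113225908, minus strand), and both are protein coding.

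The call depended on how the error and the mean were formed. Gzma varied more between hearts than genes of its level did, and with robust moderation its SE was 0.58 and its limma adjusted p 0.917. With the mean of the deposited log2 values in place of the mean CPM, the difference was 1.36 and the limma adjusted p 0.88. The other 15 alternatives, each heart left out among them, kept the call, with values of 1.56 to 3.25.

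Shares of Gzma-bearing cells and amounts per cell were counted separately. After thinning, a Gzma UMI was found in 48.1%, 20% and 33.0% of Trm-like cells of the IL-33+ hearts and in 16.9%, 21.2% and 25.4% of those of the IL-33- hearts. These groups overlapped (exact permutation p = 0.3). The share with a Gzma UMI was 7.7% in thinned B cells, which should lack the gene (2292 UMIs before thinning). Cells with 10 or more Gzma UMIs were 19 of 81, 2 of 20 and 11 of 106 in the IL-33+ hearts, and 1 of 59, 2 of 33 and 4 of 63 in the IL-33- hearts. These cells held 78.6% to 85.8% of the Gzma UMIs of an IL-33+ heart and 35.3% to 65.2% of those of an IL-33- heart. The cell with the most had 104 Gzma UMIs and was from heart 3.

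Among the 39 cells with 10 or more Gzma UMIs, 28 had a CD8 UMI and no Cd4 UMI, 11 had neither, and 0 had a Cd4 UMI alone. A UMI of Cd3d, Cd3e, Cd3g or Trac was present in 36 of them, and 12 had 2 or more NK markers. Without the cells with 2 or more NK markers, Gzma remained called at a log2 fold change of 1.66 (limma adjusted p = 0.011). The summed level of the 8 NK markers in Trm-like cells ranged from 117 to 341 CPM in IL-33+ hearts and from 162 to 243 CPM in IL-33- hearts.

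Trm-like cells were divided by their coreceptor UMIs. The CD8 class had a Cd8a or Cd8b1 UMI and no Cd4 UMI (188 cells, 51.9%), the CD4 class the reverse (45 cells, 12.4%), 3 cells had both and 126 cells (34.8%) had neither. The median depth was 2886 UMIs in the CD8 class, 2953 in the CD4 class and 2481 in cells with neither, so absence of a coreceptor UMI at this depth does not show absence of the coreceptor.

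Within the CD8 class the Gzma levels of the groups were further apart. They were 3192, 3262 and 2778 CPM in IL-33+ hearts 1, 2 and 3, and 214, 224 and 639 CPM in IL-33- hearts 4, 5 and 6. The log2 fold change was 3.25 (SE 0.28, limma adjusted p = 1.8e-08), and Gzma was the single gene called among 6233 tested (0.016%). Heart 2 had 5 such cells, of which 2 had Gzma UMIs, and the value without it was 3.20. Gzma was also called here with robust moderation (limma adjusted p = 0.00033), but not with the mean of deposited log2 values (2.65, limma adjusted p = 0.839). In the CD4 class the level lay between 0 and 109 CPM in all 6 hearts, and heart 2 had 0 Gzma UMIs. In cells with neither coreceptor it was 1547, 816 and 1566 CPM in IL-33+ hearts and 233, 997 and 848 CPM in IL-33- hearts, which overlapped.

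**Figure D3:**
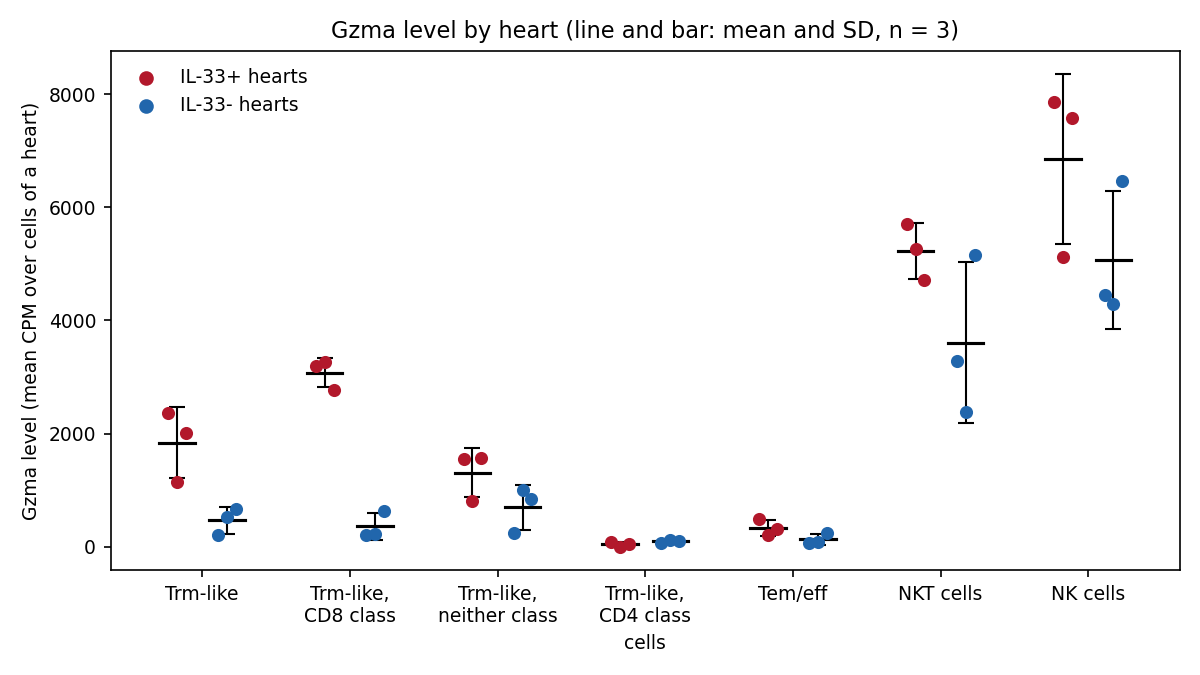
Gzma level (y axis, mean CPM over the cells of a heart) in all Trm-like cells, in their CD8 class, cells with neither coreceptor and CD4 class, and in Tem/eff, NKT and NK cells (x axis). Points are hearts (red IL-33+, blue IL-33-) and lines and bars the mean and SD of 3 hearts; CD8-class cells of IL-33+ hearts lie at 2778 to 3262 CPM and those of IL-33- hearts at 214 to 639 CPM.

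Gzma was also measured in the types nearest to Trm-like cells in the same hearts. In NK cells its levels were 7855, 5131 and 7575 CPM in IL-33+ hearts and 4451, 4290.4 and 6470.2 CPM in IL-33- hearts. The Gzma contrast in Trm-like cells exceeded that in NK cells by 1.62 on the log2 scale (SE 0.22, limma adjusted p = 0.00089), and the difference was called with each heart left out. In NKT cells the levels were 5699, 5270 and 4714 CPM against 3287, 2373 and 5163 CPM. There the difference of contrasts was 1.45 (SE 0.32) and was not called (limma adjusted p = 0.945), but it was called without heart 2, at 1.77. In Tem/eff cells the levels were 491, 206 and 308 CPM against 68.7, 81.2 and 242 CPM, with a difference of contrasts of 0.64 (SE 0.28, limma adjusted p = 0.949). In Tregs the Gzma levels were 117, 126 and 551 CPM against 76.1, 67.6 and 69.8 CPM, without overlap (1.397, SE 0.43, limma adjusted p = 0.707). In Tcm cells they were 217, 881 and 241 CPM against 95.5, 243 and 263 CPM, which overlapped (0.94, SE 0.32, limma adjusted p = 0.951). Whether the contrast in Trm-like cells differed from those in Tregs and Tcm cells was not tested. Of the T and NK types fitted, NK cells had the smallest contrast, at 0.43.

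The only other gene whose contrast differed between Trm-like and NK cells was Hilpda, a lipid droplet protein gene, in a test of 7706 genes with 0.026% called and 360 genes (4.67%) at an unadjusted p of at most 0.05. Its levels were 86.1, 116 and 98.9 CPM in Trm-like cells of IL-33+ hearts and 49.6, 109.8 and 12.9 CPM in those of IL-33- hearts. In NK cells the order was opposite, at 20.3, 26.1 and 44.9 CPM and 113, 189 and 69.5 CPM. The difference of 2.68 on the log2 scale (SE 0.48, limma adjusted p = 0.044) rested on 3 to 33 UMIs per heart in Trm-like cells and was not called in any fit that left out a heart. For NKT and Tem/eff cells 0 genes were called by limma, and in both comparisons 353 genes were at or under an unadjusted p of 0.05 (4.58% and 4.59% of those tested).

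**Figure D4:**
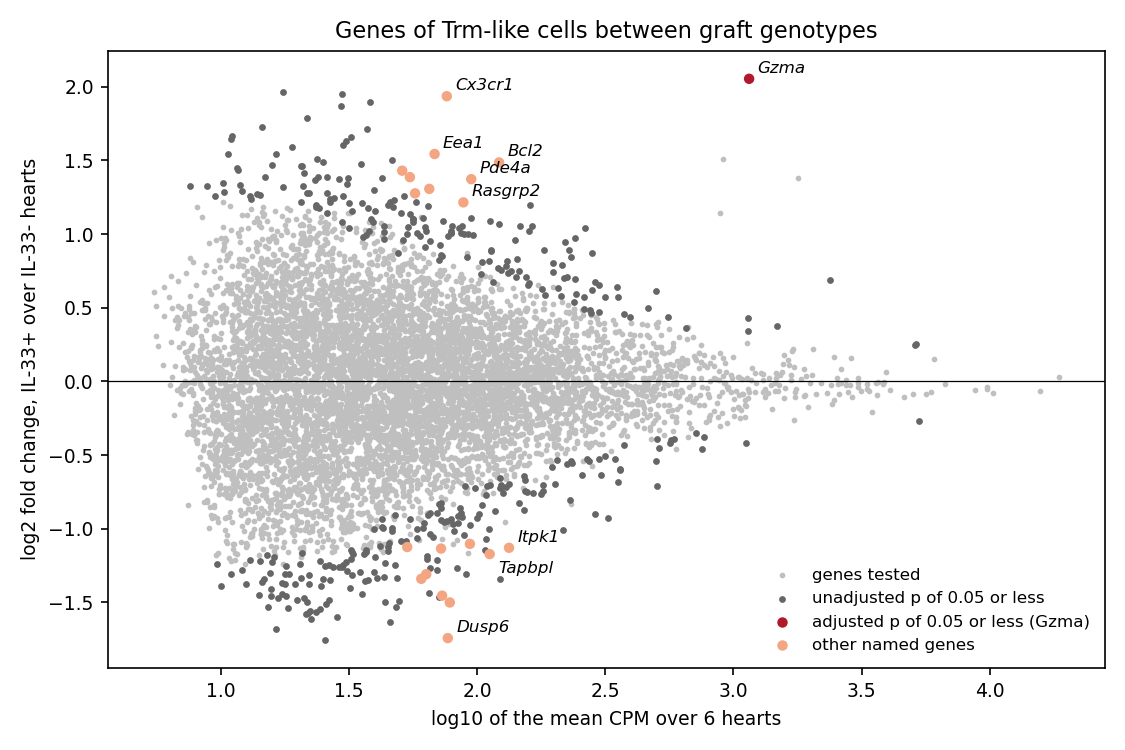
Log2 fold change between IL-33+ and IL-33- hearts (y axis) against the log10 mean CPM over the 6 hearts (x axis) for the 7819 genes tested in Trm-like cells. Gzma (red) is the gene called, and orange points are the other named genes, such as Cx3cr1 at 1.94 and Dusp6 at -1.74.

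Across all genes, 395 (5.05% of those tested) had an unadjusted p of at most 0.05, of them 192 (2.46%) were higher and 203 (2.6%) lower in IL-33+ hearts. Of these, 236 (3.02%) differed 2-fold or more, 117 (1.5%) higher and 119 (1.52%) lower. The groups did not overlap for 809 genes (10.3%), 377 (4.82%) higher and 432 (5.53%) lower. Of all 7819 genes, 3749 were higher and 4070 lower in IL-33+ hearts at any p, and their median log2 fold change was -0.02. The genes given next missed the adjusted threshold, and their values are a description.

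Cx3cr1, the receptor for fractalkine and a gene of circulating effector T cells, was at 100.0, 133 and 142 CPM in IL-33+ hearts and 11.8, 29.6 and 39.8 CPM in IL-33- hearts. The groups did not overlap (log2 fold change 1.94, SE 0.41, limma adjusted p = 0.257). In the CD8 class it was at 136, 278 and 119 CPM against 9.90, 0 and 8.40 CPM, without overlap (3.51, limma adjusted p = 0.626). Cx3cr1 UMIs were found in 8 of 47, 2 of 5 and 9 of 57 CD8-class cells of IL-33+ hearts and in 1 of 27, 0 of 11 and 1 of 41 of those of IL-33- hearts. Among cells with neither coreceptor they were found in 1 of 26, 1 of 8 and 8 of 35 cells against 0 of 25, 1 of 14 and 4 of 18 cells, and these groups overlapped. Bcl2, which encodes a survival protein, was at 203, 145 and 201 CPM against 38.1, 81.6 and 62.0 CPM (1.49, SE 0.33, limma adjusted p = 0.348). Eea1, of early endosomes, was at 96.3, 126 and 92.0 CPM against 13.4, 49.5 and 32.7 CPM.

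Genes were ranked by size among those with an unadjusted p of at most 0.05, a mean of 50 CPM or more and no overlap of the groups, 79 higher and 68 lower. Of the 79, the largest differences after Gzma, Cx3cr1, Eea1 and Bcl2 were those of Trp53, Cd96, Pde4a, Specc1l, Rgcc and Rasgrp2, at 1.43 to 1.21. In CD8-class cells alone the sign of Trp53 turned, to -0.19, and without heart 4 Cd96 was at 0.73. In the other direction Dusp6, a phosphatase of the ERK pathway, was at 79.4, 0 and 44.3 CPM against 127, 105 and 106 CPM (-1.74, SE 0.54, limma adjusted p = 0.923), and without heart 2 its difference was -0.81. Tapbpl, which takes part in peptide loading of class I molecules, was at 55.4, 62.7 and 78.0 CPM against 162, 162 and 152 CPM (-1.17, SE 0.32, limma adjusted p = 0.808). The others were 1810030O07Rik, Ube3c, Ppp2cb, Tmcc1, Rnf7, Itpk1, Mtrex and Traf4, at -1.50 to -1.10, and for Ube3c and Ppp2cb heart 2 had 0 UMIs. Without heart 2, Ube3c was at -0.46, Ppp2cb at -0.42, Traf4 at -0.36, Rnf7 at -0.58 and Itpk1 at -0.66.

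Genes of cytotoxic granules were led by Gzma, the 1 member called of 13 tested. The median log2 fold change of the 13 was 0.12. Gzmb was at 339.7, 221 and 523 CPM in IL-33+ hearts and 94.5, 255 and 245 CPM in IL-33- hearts, which overlapped (0.87, limma adjusted p = 0.923). Gzmk was at 308, 72.1 and 121 CPM against 74.1, 114 and 244 CPM (0.12, SE 0.40). Prf1, encoding perforin, was at 65.4, 55.5 and 43.6 CPM against 47.5, 75.7 and 71.7 CPM (-0.20, SE 0.39). Cst7, encoding cystatin F, was at 36.8, 0 and 28.3 CPM against 54.5, 32.3 and 42.4 CPM, the largest difference in the other direction. The groups overlapped for Cst7, and much of its difference rested on the 0 of heart 2, which had 20 cells. Nkg7 and Srgn differed by 0.07 and 0.02. Within the list, the 2 members at or under an unadjusted p of 0.05 were Gzma and Gzmb, both higher in IL-33+ hearts. Over all 7819 genes tested, 395 (5.05%) were at or under it, and Gzma was the single gene called.

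Of 18 tested genes of tissue residency, 0 were called by limma, 11 were higher and 7 lower in IL-33+ hearts, with a median of 0.16. Cd69 was at 209, 289.7 and 266 CPM against 146, 168 and 112 CPM, without overlap (0.80, limma adjusted p = 0.923). Itgae was at 4.13, 56.7 and 59.1 CPM against 4.86, 25.0 and 3.27 CPM, and Itga1 at 91.0, 35.4 and 107 CPM against 39.9, 113 and 35.4 CPM. The largest difference in the list was in the other direction. Cdh1, encoding E-cadherin, was at 84.8, 0 and 49.5 CPM against 78.2, 88.4 and 127 CPM, which overlapped (-1.47, limma adjusted p = 0.923). Much of that difference rested on the 0 of heart 2, which had 20 cells and entered the fit at the 10 CPM added. Of 13 tested genes of recirculation, 10 were higher and 3 lower, with a median of 0.23 and 0 called, against 3749 of 7819 higher for all genes. S1pr1 was at 507, 617 and 518 CPM against 412, 393 and 349 CPM, without overlap (0.50, limma adjusted p = 0.923). In the CD8 class it was at 485, 675 and 312 CPM against 181, 113 and 260.2 CPM.

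The receptor for IL-33 was near the limit of detection. Il1rl1 had 12 UMIs in 6 of 207 Trm-like cells of IL-33+ hearts and 0 in 155 cells of IL-33- hearts, which allows a UMI in up to 1.94% of cells. Even in Tregs it had a UMI in 15.2% of cells, so cells without a UMI may still express it. Of the cytokine receptors, 14 were tested and 0 called, with a median log2 fold change of 0.00. Il18rap, a chain of the IL-18 receptor, was at 169, 102 and 129 CPM against 52.8, 73.5 and 42.9 CPM, without overlap (1.11, limma adjusted p = 0.923). Ifng, encoding the cytokine IFN-γ, was at 116, 73.1 and 129 CPM against 57.2, 33.3 and 54.0 CPM (0.99, limma adjusted p = 0.923). Il4 and Il5 had 0 UMIs.

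Of 15 tested immediate early genes and genes of the response to T cell receptor engagement, 0 were called, 10 were higher and 5 lower. This list is not specific to the receptor, and what induced its genes was not tested. Nr4a1 was at 235, 270.0 and 473 CPM against 172, 129.7 and 161 CPM, and Btg2 at 240.0, 324 and 314 CPM against 145, 179 and 118 CPM, both without overlap (0.98 and 0.95, limma adjusted p = 0.808 for both). Of 7 tested checkpoint receptors 2 were higher and 5 lower. Ctla4 was at 176, 61.2 and 215 CPM against 236, 314 and 294 CPM, without overlap (-1.01, limma adjusted p = 0.923). Entpd1, encoding CD39, had the largest difference of the list, at 81.2, 60.9 and 67.0 CPM against 38.9, 0 and 63.9 CPM, which overlapped (1.26, limma adjusted p = 0.923). Much of that difference rested on the 0 of heart 5, which had 33 cells and entered the fit at the 10 CPM added. Pdcd1, encoding PD-1, was at 109, 40.2 and 129 CPM against 107, 79.6 and 106 CPM. Of 15 tested interferon-stimulated genes 8 were higher and 7 lower, and of 12 tested proliferation genes 8 were higher and 4 lower, with 0 called in both lists. T cell receptor complex genes, of which 4 of 14 were higher, had a median of -0.10.

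The classes of Trm-like cells were compared within hearts, to describe what the annotation joins. Hearts 1 to 5 had 5 or more cells of both classes, 147 of the CD8 and 41 of the CD4 class. Of 6279 genes tested without Cd8a, Cd8b1 and Cd4, 27 (0.43%) were called by limma with the heart as a block, 15 higher (0.239%) and 12 lower (0.191%) in the CD8 class. Ccl5 and Gzma had the lowest adjusted p.

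Ccl5 was at 5677, 5407, 4096, 4942 and 2777 CPM in the CD8 class of hearts 1 to 5 and at 767, 556, 519, 407 and 1700.3 CPM in the CD4 class. It was higher in the CD8 class in 5 of 5 hearts (log2 difference 2.67, SE 0.20, limma adjusted p = 1.6e-15). Gzma was higher in the CD8 class in 5 of 5 hearts as well (4.34, SE 0.54, limma adjusted p = 1.1e-07). The differences were 5.06, 8.35 and 5.83 in hearts 1 to 3 and 1.46 and 0.98 in hearts 4 and 5, the IL-33- hearts. Their sizes depend on few counts, as the CD4 class held 8 Gzma UMIs in these hearts. In heart 2, with 5 CD8-class and 6 CD4-class cells, the CD4 class had 0 Gzma UMIs and entered at the 10 CPM added. Gzmb was at 533, 536, 805, 156 and 507 CPM in the CD8 class and 0, 0, 291, 59.3 and 92.6 CPM in the CD4 class (3.31, SE 0.58, limma adjusted p = 0.00029).

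Gzmk had 88 UMIs in the CD8 class and 3 in the CD4 class, all of the latter in heart 1, and was called (limma adjusted p = 0.0047). Of the 188 CD8-class cells of all hearts, 83 had a Gzma UMI, 69 a Gzmk UMI, 34 both and 48 none of Gzma, Gzmb and Gzmk. Nkg7, a granule membrane protein gene, Ccl4, and Runx3, a transcription factor of CD8 T cells, were higher by 2.43, 2.77 and 1.46 (limma adjusted p = 0.0012, 0.0023 and 0.0063). Of the 13 tested granule genes 4 were called, all higher in the CD8 class. On that side lay 11 of 13, against 3843 of 6279 for all genes, with medians of 1.28 and 0.23.

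Of the 12 genes lower in the CD8 class, Tnfrsf4 had the largest difference. Tnfrsf4, encoding the costimulatory receptor OX40, which Tregs also bear, was at 17.8, 0, 18.8, 0 and 0 CPM in the CD8 class and 173, 118, 289.7, 478 and 292 CPM in the CD4 class (-4.06, SE 0.79, limma adjusted p = 0.0017). Maf, a transcription factor of helper T cells, was at 134, 0, 127, 232 and 74.5 CPM against 470.0, 401, 469, 555 and 402 CPM (-2.48, SE 0.49). Tbc1d4, Ramp3, Cytip and Hif1a were lower in the CD8 class by 3.10, 2.09, 1.29 and 1.51. The exit gene S1pr1 and the lymph node homing receptor gene Ccr7 were lower in the CD8 class too (-1.27 and -2.49, limma adjusted p = 0.024 and 0.048). S1pr1 was called in 2 of 7 alternatives and Ccr7 in 4.

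Of the 27 genes, 7 were called in all 7 alternatives, namely Ccl5, Gzma, Gzmb and Laptm5 on the CD8 side and Tbc1d4, Ramp3 and Maf on the CD4 side. Without heart 1 the count was 15 and without heart 4 it was 8. The hemoglobin genes Hbb-bs and Hba-a1 were also among the 12 lower in the CD8 class, at -3.31 and -3.02. In hearts 2, 3 and 5, cells with 5 or more hemoglobin UMIs numbered 1, 2 and 3 and held 97.0%, 97.4% and 98.4% of the hemoglobin UMIs of the Trm-like cells. Of 8 such cells in all hearts, 3 were of the CD4 class. Without these cells the differences were 0.51 and 1.07, with the sign turned, and 21 genes were called.

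**Figure D5:**
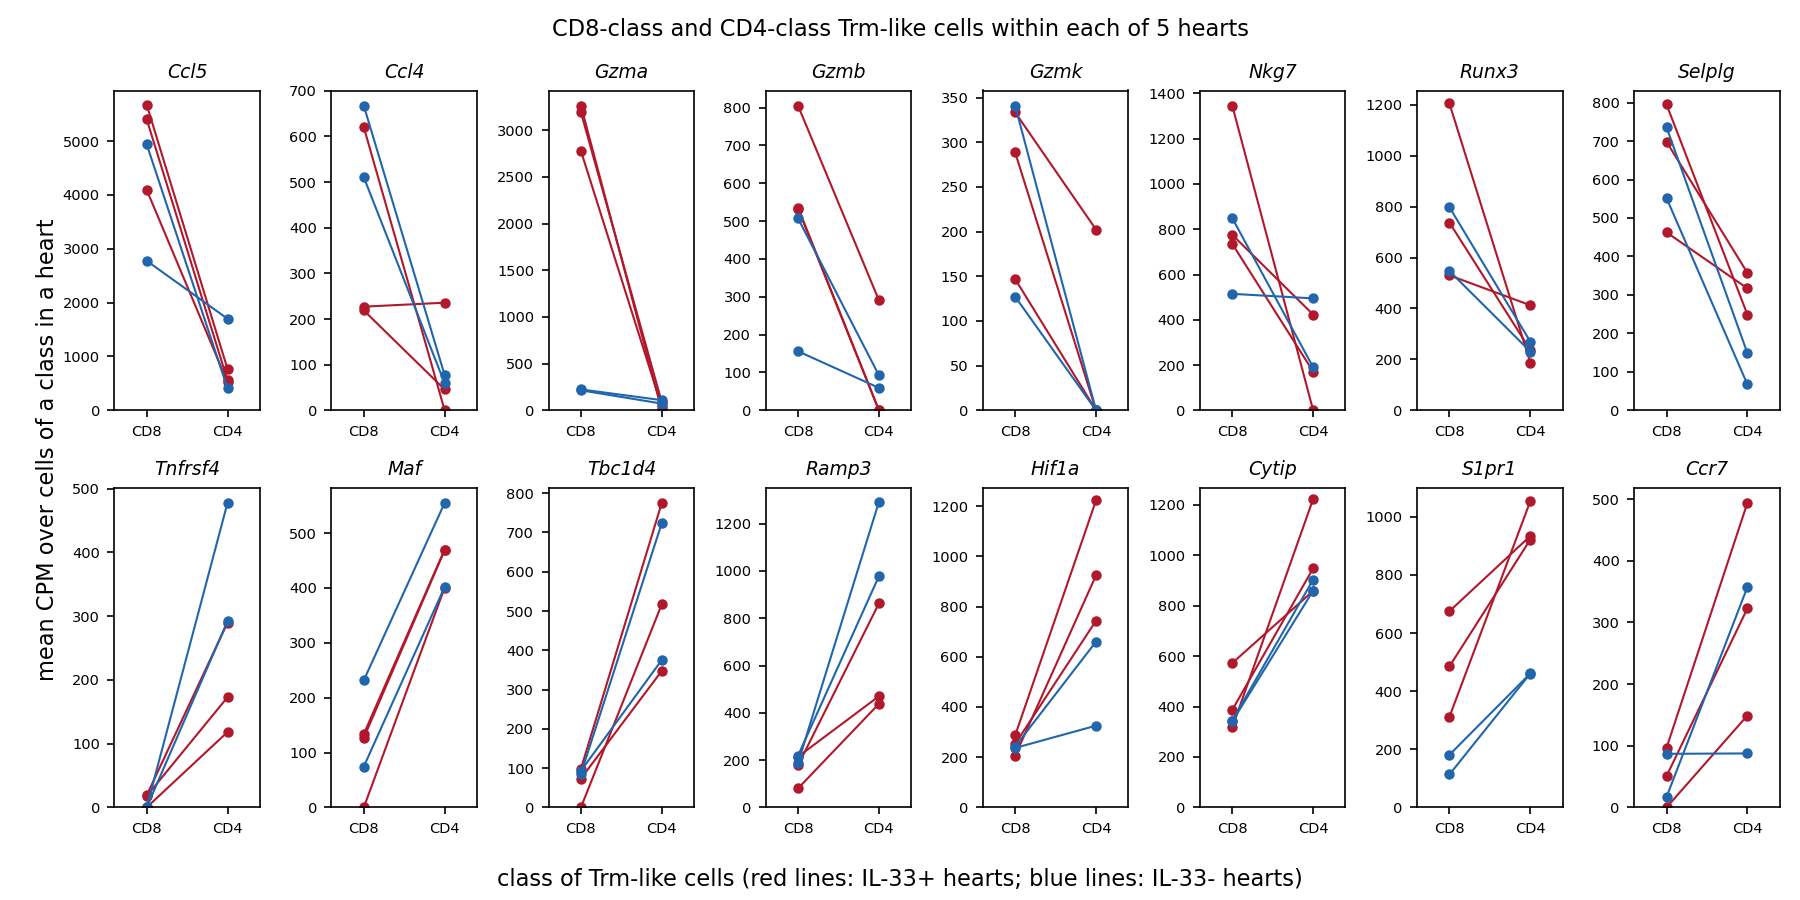
Levels of 16 genes called between the classes (y axes, mean CPM over the cells of a class in a heart) in CD8-class and CD4-class Trm-like cells (x axes), with 1 line per heart for hearts 1 to 5 (red IL-33+, blue IL-33-). The top row is higher in the CD8 class, where Ccl5 lies at 2777 to 5677 CPM, and the bottom row in the CD4 class, where Tnfrsf4 lies at 118 to 478 CPM.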

How the data were processed

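Single-cell RNA-Seq was measured in 6 hash-tagged Bm12 hearts at POD14. Per the study's methods, the authors processed reads with Cell Ranger on mm10 and Partek Flow (10.0.23.0425 in the submitters' notes) and annotated cells from t-SNE neighbourhoods, graph-based clusters and markers. The deposited values are log2(CPM + 1) per gene and cell, a log2 unit. CPM were recovered from them, and whole UMIs from the step between values (99.9% of low values within 0.05 of a whole UMI).

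Mean CPM over the Trm-like cells of a heart, plus 10, was log2 transformed and fitted between groups in R 4.3.3 using limma 3.58.1 (eBayes with trend, two-sided, Benjamini-Hochberg over all genes tested). Genes with fewer than 10 UMIs in all, or with UMIs in under 3 hearts, were left out. Differences of contrasts used the difference between types within a heart. Classes were compared with the heart as a block. For shares the exact permutation test was two-sided, and intervals and limits for 0 counts (3 counts) cover counting error only. Scripts were tested on simulated data.

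The members and the 25 gene lists were chosen with earlier results of these data known. Named genes were list members, called genes, up to 10 genes per direction with the largest change (unadjusted p of 0.05 or less, mean of 50 CPM or more, groups without overlap), the 20 genes highest against the next type, and up to 10 per direction by class. Hilpda, S1pr1 and Ccr7 by class, Itgae and the cell counts of Gzma and Cx3cr1 were singled out after their values were seen. No doublet caller was run, and possible doublets were left out in an alternative. Coordinates are those of GENCODE vM21, start from 1 and use the build of the authors.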

Additional observations from a re-analysis of the deposited data

Results flagged for a closer look

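The IL-33 contrast of 2 genes differed between Trm-like and NK cells of the same hearts by a test of the difference itself. The Gzma contrast was larger in Trm-like cells by 1.62 on the log2 scale, and the Hilpda contrast by 2.68. In the comparison of classes, single hearts were flagged as standing apart for 3 named genes. The log2 difference of Ccl5 between the CD8 and the CD4 class was 0.70 in heart 5, against 2.87 to 3.57 in hearts 1 to 4. The difference of Tbc1d4 was -5.72 in heart 2, against -2.94 to -1.90 in the others. The difference of Maf was -5.36 in heart 2, against -2.29 to -1.23 in the others. Heart 2 had 5 CD8-class cells, with 0 UMIs of Tbc1d4 and Maf. Heart 2 was also far from the others for Nkg7 (7.08 against 0.06 to 2.10) and Ugcg (6.20 against -0.03 to 2.70), which were not flagged. Among the 20 genes, how many flags chance alone would give was not tested.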

How the results depend on the processing

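No paired analysis was possible because the deposited labels number the hearts 1 to 3 in one group and 4 to 6 in the other, and no source used here ties a number to a shared batch or day. For the comparison of graft genotypes, 0 genes were called with robust moderation and with the mean of deposited log2 values (chosen after seeing the data), where Gzma was at 2.05 and 1.36, 2 genes with limma-voom (Gzma and Actg1) and 8 without the filter on low counts. Leaving out 1 heart gave 1 to 4 called genes, with the hemoglobin genes added without heart 1 and Crip1 without heart 3, 158 to 342 genes at 2-fold with an unadjusted p of 0.05 or less, and Gzma at 1.56 to 2.39. Genes at 2-fold with an unadjusted p of 0.05 or less numbered 3 with a pseudocount of 50 CPM and 137 with the mean of deposited log2 values. Left out 1 at a time, hearts gave 1 to 3 genes whose contrast differed from NK cells, 0 to 1 for NKT cells, 0 to 0 for Tem/eff cells, and 8 to 35 genes called between the classes, against 42 with a pseudocount of 50 CPM. In CD8-class cells the calls between genotypes numbered 17 without heart 1 and 1 without any other heart. The signs of Trp53 (-0.19, CD8-class cells only), Hbb-bs (0.51) and Hba-a1 (1.07, both without hemoglobin-bearing cells) turned. Of 140 refits of the 20 named class genes 113 kept the call. Of 323 refits of the 19 named genes not called between genotypes, 2 crossed the threshold. Differences in the shares moved by less than 1 SD with other denominators or depth. Depth limits genes such as Il1rl1 and Itgae, with 12 and 31 UMIs in all Trm-like cells, and the 20 cells of heart 2.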

Other observations

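Over hearts 1 to 5, Trm-like cells with neither coreceptor UMI lay between the classes for genes such as Ccl5 and Maf. Ccl5 was at 1695 CPM in them, against 4580 CPM in the CD8 and 790 CPM in the CD4 class, and Maf at 359 CPM against 113 and 459 CPM. Gzmb, at 129 CPM, lay nearer to the CD4 class (88.6 CPM) than to the CD8 class (507 CPM), and Dusp2, at 1069 CPM, nearer to the CD8 class (1186 CPM) than to the CD4 class (484 CPM). Other genes lay outside both classes. Rgs2 was at 991 CPM against 498 CPM in the CD8 and 622 CPM in the CD4 class, and Id2 at 1641 CPM against 1300 and 887 CPM. Lag3 was lower than in both, at 29.1 CPM against 174 and 198 CPM. Of the 15 cells with 2 or more gamma delta T cell genes, 10 had neither coreceptor, 3 were of the CD8 class and 2 of the CD4 class. Trdc was at 6.06, 77.8, 50.3, 127, 0 and 9.54 CPM in hearts 1 to 6, and Cd163l1, a gene of IL-17-producing gamma delta T cells, at 0, 231, 7.69, 84.0, 0 and 0 CPM. Hbb-bs was at 70.4, 5278, 2003, 101, 3157 and 128 CPM in hearts 1 to 6, and the groups overlapped.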
